A study of Drosophila melanogaster with 2 samples.

Results

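The peaks described here are the binding regions of a tagged zinc finger protein, CG12236, that lay deep inside introns of Drosophila melanogaster genes. A region was taken when its summit, the base of highest enrichment, fell inside a protein-coding gene, outside every untranslated region and coding exon, and more than 3000 bp from the nearest protein-coding transcript start. Of the 2426 peaks that the authors kept as reproducible, 421 met this rule (17.4%, 95% Wilson interval 15.9 to 18.9%), and they are called distal intronic peaks below. The other IDR peaks comprised 1100 within 500 bp of a protein-coding start site (promoter peaks), 470 in introns within 3000 bp of a start site but outside promoters (near intronic peaks), 397 outside protein-coding genes (intergenic peaks) and 38 in exons. Beyond the authors' selection of peaks and their summit positions, no signal value entered the rule.

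Chromatin immunoprecipitation and sequencing (ChIP-seq) was performed on whole embryos of a transgenic line that stably expressed CG12236 fused at its C terminus to green fluorescent protein (eGFP), and an antibody against GFP was used for the precipitation. Embryos of both sexes were pooled at an age of 0 to 24 h and the chromatin was sonicated to 200 to 800 bp. There was 1 group with 2 biological replicates, numbered 3 and 1 in the labels, so no condition, genotype or stage was compared. All cell types and all embryonic ages are mixed in each library, so a peak in few cells and a weak peak in many cells cannot be told apart, and the tag may alter where the protein sits.

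Each replicate and the pool of both had a ranked list of 30000 regions, which the authors labelled as peaks and background. The reproducible peaks were selected by the irreproducible discovery rate (IDR), which asks whether peaks keep their rank between replicates, and they made up the top 2426 places of the pooled list. Signal is the authors' enrichment value for a region. Neither its scale nor the read depth is known here, so it serves only to rank and describe regions within a list. Intervals cover counting error only and treat peaks as independent, which neighbouring peaks of 1 gene are not. Coordinates are 1-based on dm6.

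BTB zinc finger proteins, the family of CG12236, bind DNA through their zinc fingers and pair through the BTB domain, and many act as repressors or organise chromatin. Long introns of developmental regulators are where many Drosophila enhancers lie, often far from the promoter they act on. Introns also hold nested genes, which are separate genes lying wholly inside the intron of a host, so a peak inside a gene need not act on that gene. Forkhead proteins, which recognise the word TGTTTAC, include regulators of gut, fat body and insulin response.

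Of 20 words searched, 5 had their position profiled, and among these the forkhead word TGTTTAC was most concentrated at distal intronic summits. The words were chosen with earlier results of these data known, so their shares and ratios describe these peaks and are not independent support. TGTTTAC lay within 50 bp of the summit on either strand in 39 of 421 peaks (9.26%), against 3.35% of 5614 weaker distal intronic regions. The weaker regions met the same position rule in the pooled list but were outside the IDR list. They may include background as well as weak binding, and the share of background is unknown. The copies nearest to the summit are given for 10 named hosts, in order of signal, from RefSeq Release 6 (dm6), with the word in capitals and each sequence read 5′ to 3′ along the word.
S, chr2L:1072381-1072410, minus strand: acatatacagcgTGTTTACctactttgtag
Rbfox1, chr3L:10519104-10519133, plus strand: ccgtctctgttTGTTTACctatttgcttag
gukh, chr3R:18998110-18998139, plus strand: cgcagtcgaaaTGTTTACaatttatttaca
Dys, chr3R:19584937-19584966, minus strand: ttgactgcattcTGTTTACacaattgttgt
Raf, chrX:2300651-2300680, minus strand: tgttatttcagaTGTTTACattcggcgagc
Antp, chr3R:6914544-6914573, plus strand: attgcctttttTGTTTACcttaaatctaaa
fz, chr3L:14297555-14297584, plus strand: atatagaataaTGTTTACacttacaaaaag
Eip75B, chr3L:17993497-17993526, minus strand: tgtgctctctctTGTTTACtttcttctggt
CG42238, chr2L:21037896-21037925, minus strand: catttgtttattTGTTTACatggcaaacat
cic, chr3R:20263908-20263937, minus strand: tttacgcgctttTGTTTACtatagatacac

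A related word, AACAAACA, lay within 50 bp of 24 distal intronic summits (5.70%), against 2.23% of the weaker regions. Its complement can overlap the forkhead word, and in the Rbfox1 peak the copies of both words overlap. The copies nearest to the summit in the 8 peaks of highest signal among the 24 are given in order of signal, with the word in capitals. Within 50 bp of the summit the vn peak held 3 copies and the caps peak 4, in runs of repeated letters.
ush, chr2L:485864-485893, minus strand: ccacttaagccAACAAACAcaacaatgtca
Rbfox1, chr3L:10519100-10519129, minus strand: gcaaataggtaAACAAACAgagacggcaac
vn, chr3L:5824253-5824282, minus strand: cagcacaaacaAACAAACAaacaagcaaac
CG6051, chr3R:27135869-27135898, minus strand: gcagccacgaaAACAAACAaactgaaatta
ush, chr2L:510604-510633, minus strand: cagtattaacaAACAAACAaaacaagcaca
sim, chr3R:13068226-13068255, minus strand: tgtatttgctcAACAAACAtaaacgagagc
nyo, chr3R:31551117-31551146, minus strand: catcgcggggaAACAAACAagttttgtgtt
caps, chr3L:13235662-13235691, plus strand: agaaatcaacaAACAAACAaacagacaaac

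The 3 strongest distal intronic peaks held neither word within 50 bp of the summit, although the JIL-1 peak held AACAAACA within 100 bp. The 30 bases about each are given on the plus strand with the summit base in capitals.
osa, chr3R:17704400-17704429, plus strand: tttctgatcaagtcaCtcatcaaaagactg
JIL-1, chr3L:11084756-11084785, plus strand: tggttatttttttgaAagtacatgaataaa
CG32486, chr3L:3060791-3060820, plus strand: gagagtcaataagcaAaaccttgcttacta

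The forkhead word was concentrated at the centre of the peaks. In the 50 bp centred on the summit there were 26 copies over the 421 distal intronic peaks, or 1.24 words per kb. Between 175 and 525 bp from the summit there were 65 copies, or 0.221 words per kb, so the centre held 5.60 times the density of the peaks' own flanks. The same ratio was 4.49 in near intronic peaks, 1.26 in promoter peaks, 1.56 in intergenic peaks and 1.48 in the weaker distal intronic regions. AACAAACA had 0.998 words per kb at the centre of distal intronic peaks and 0.217 in their flanks, a ratio of 4.59. That ratio was 2.77 in near intronic, 1.51 in promoter and 2.09 in intergenic peaks, and 1.16 in the weaker regions.

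**Figure D1:**
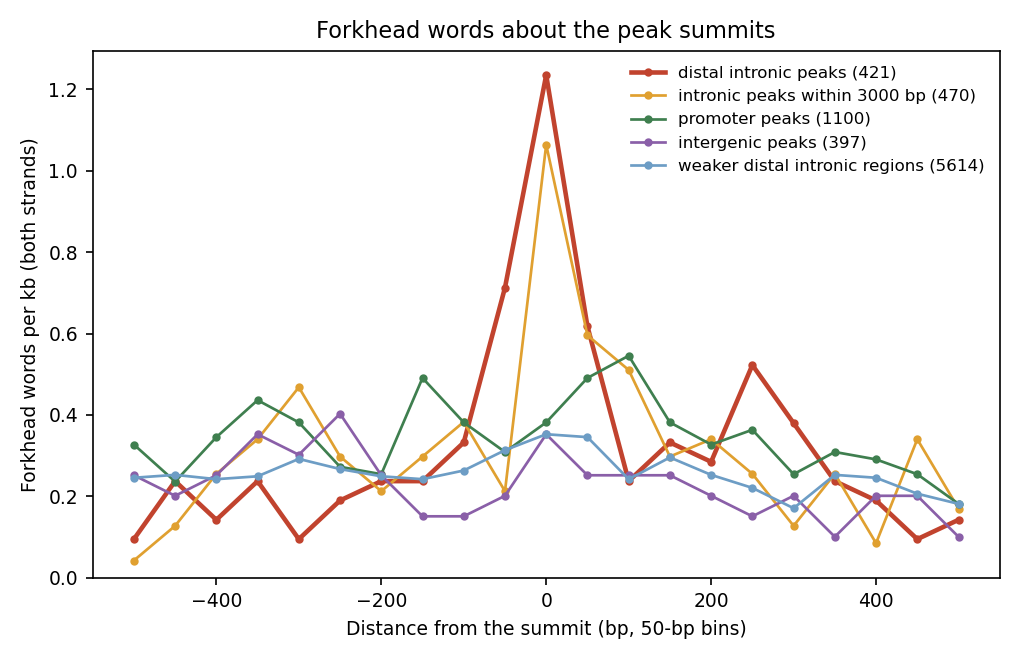
Density of the forkhead word on both strands (words per kb, vertical axis) against distance from the summit in 50-bp bins (horizontal axis), with 1 line for each set of regions and the number of regions in the legend. The distal intronic peaks reach 1.24 words per kb at the summit, the near intronic peaks 1.06, and the weaker distal intronic regions 0.353.

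The base composition of the compared sets differed. The median GC content of the 201 bases about the summit was 37.3% in distal intronic peaks and 40.8% in the weaker regions. Within 100 bp of the summit the forkhead word was present in 51 distal intronic peaks (12.1%, interval 9.34 to 15.6%) and in 5.81% of the weaker regions, while near intronic peaks had 9.57%, promoter peaks 7.36% and intergenic peaks 4.79%. Weighting the weaker regions to the GC content of the distal intronic peaks, over 5 GC classes, gave 6.14%. The share with the word was higher in distal intronic peaks in each of the 5 classes, from 8.70% against 7.65% in the class lowest in GC to 21.2% against 5.38% in the class above the middle one. That last share rests on 14 of 66 peaks.

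Peaks with and without the forkhead word had similar signals. The 39 peaks with the word within 50 bp had a median signal of 102.0 and the 382 without it a median of 100.7. Among the 100 strongest distal intronic peaks 9 held the word, and among the 100 weakest 13 did. For AACAAACA the 24 peaks with the word had a median of 119.0, against 100.4 in the other 397. The 39 peaks with the forkhead word lay in 36 different hosts.

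Other words among the 20 also differed in share between the distal intronic peaks and the weaker regions, in both directions, and for several the other IDR peaks had like shares. The GATA element AGATAA, bound by GATA factors, lay within 100 bp of 73 distal intronic summits (17.3%, interval 14.0 to 21.3%), against 15.7% of near intronic peaks, 12% of promoter peaks and 11.5% of the weaker regions. Only part of this gap was left after weighting for GC content, which gave 13.7% in the weaker regions. Its density at the centre was 1.40 times that of the flanks in distal intronic peaks, 1.71 times in near intronic peaks and 0.975 times in the weaker regions. The CACTGTGC word lay within 100 bp of 22 distal intronic summits (5.23%) and of 1.92% of the weaker regions, or 2.16% weighted for GC content. The share was 5.75% in near intronic peaks and 4.55% in promoter peaks. The Zelda element CAGGTAG, read by an activator of the early embryonic genome, was near 9 summits (2.14%, interval 1.13 to 4.01%), against 0.837% of the weaker regions, or 0.623% weighted, and 1.06% of near intronic peaks. Lower shares were found for AGGAC, a core of the site of the BTB protein Tramtrack, with 6.18% (interval 4.25 to 8.90%) against 12.4%, or 10.2% weighted, while near intronic peaks had 6.81% and promoter peaks 7.55%. The Scalloped (TEAD) word GGAATG was also lower, with 5.70% (interval 3.86 to 8.34%) against 9.44%, but the weighted 8.31% lies inside the interval, and near intronic peaks had 5.96%. The direction for the GAGA element GAGAG depended on the window, with 28.03% against 23.9% within 100 bp and 11.9% against 13.3% within 50 bp.

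Several words of promoter peaks had lower shares in distal intronic peaks. The DNA replication-related element TATCGATA, a common word of Drosophila housekeeping promoters, was within 100 bp of 0 of 421 distal intronic summits (upper Wilson bound 0.904%), against 7.09% of promoter peaks. It was also scarce elsewhere away from promoters, at 0.213% of near intronic and 0.252% of intergenic peaks and 0.356% of the weaker regions. The core of Ohler motif 7, CAGCNCTG, was in 1.43% of distal intronic peaks, 7.73% of promoter peaks and 1.64% of the weaker regions, and CGATA in 20.4%, 37.7% and 18.8%. The E-box CANNTG was in 66.3% of distal intronic peaks and 64.1% of promoter peaks. A match of letters does not show that any protein bound there.

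Distal intronic peaks were of moderate strength. Their signal ran from 70.6 to 469 with a median of 100.8, and medians in the other classes were 102.9 for near intronic, 106.3 for promoter, 101.7 for intergenic and 99.2 for exon peaks. Few were at the top: 6 of the 421 distal intronic peaks were among the 100 strongest of the 2426 IDR peaks, and the best ranked 36. In that top 100 were 54 of the 1100 promoter peaks, 20 of the 470 near intronic, 19 of the 397 intergenic and 1 of the 38 exon peaks. Of the 421 distal intronic peaks 199 (47.3%) were in the stronger 50% of the list. Most peaks, 364 of 421, had the width of 424 bp that was the commonest, and the narrowest spanned 106 bp.

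In the pooled list 6035 regions met the position rule, and the 421 in the IDR list were 6.98% of them (interval 6.36 to 7.65%). Over all regions of the pooled list the share in the IDR list was 8.09%. It was 12.9% at promoters, 9.51% in near introns, 7.03% between genes and 0.783% in exons.

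The strongest distal intronic peak lay in osa, which encodes a subunit of the Brahma (SWI/SNF) chromatin remodelling complex, at chr3R:17704259-17704578. Its signal was 469 in the pool, 324 in replicate 3 and 146 in replicate 1, and its summit lay 13935 bp from the start site of osa, inside the non-coding gene lncRNA:CR46035. JIL-1, a histone H3 kinase, came second at chr3L:11084629-11084924, with 379.8 in the pool, 257 in replicate 3 and 123 in replicate 1. The third, in CG32486, had 368 in the pool, 258 in replicate 3 and 103 in replicate 1.

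Star (S), a membrane protein needed to export the ligand of the EGF receptor, came next at chr2L:1072252-1072503, with signals of 365 in the pool, 240.5 in replicate 3 and 117 in replicate 1. Gug encodes Atrophin, a corepressor of nuclear receptors, and had 317 in the pool, 195 in replicate 3 and 122 in replicate 1. Hr4, a nuclear receptor of the ecdysone response, held the sixth and the eleventh, with pooled signals of 316 and 263. All of these peaks were high in both replicates, and each was higher in replicate 3.

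The other hosts of the 25 strongest peaks included several secreted or membrane signalling proteins. The Wnt receptor gene fz had a peak of 308 in a first intron of 29170 bp, and aos, a secreted inhibitor of the EGF receptor pathway, one of 278. ImpL2, which binds insulin-like peptides, had a peak of 258, the Notch receptor gene N one of 247, and vn, a neuregulin-like ligand of the EGF receptor, one of 239. Others encode a cofactor of GATA factors (ush, 254), a splicing factor (Rbfox1, 250.4), Dystrophin (Dys, 245), a transcription elongation factor (Su(Tpl), 231) and a Hippo pathway protein (ex, 228). The rest of the 25 were in CG17124, CG46321, gukh, Pits, MESR3, babos, beat-Ib and Lrch, at 224 to 310.5.

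With a summit within 200 bp counted as the same region, 421 distal intronic peaks were matched in replicate 3 and 420 in replicate 1. Replicate 3 signals ran from 24.0 to 324 with a median of 62.0, and replicate 1 signals from 8.65 to 146 with a median of 39.7. The signal was higher in replicate 3 for 374 of 420 peaks, with a median ratio of 1.64, against 1.73 over all IDR peaks matched in both. Both replicates ranked 271 of the 421 (64.4%, interval 59.7 to 68.8%) within their own 2426 strongest regions, and 66.4% of the other 2005 IDR peaks. Across the 420 peaks Spearman's rho was 0.454 and Pearson's r of log2 signal 0.518, and across 1999 other IDR peaks 0.569 and 0.666. These describe peaks that share libraries, a control alignment and selection on the pooled signal, so they carry no p.

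The replicates differed most at the following peaks. The peak in dar1, a transcription factor of neuron shape, had 77.5 in replicate 3 and 8.65 in replicate 1, where it ranked 29137 of 30000. The peak in tna had 64.1 in replicate 3 and no summit within 200 bp in replicate 1. In the other direction a peak in px had 26.7 in replicate 3 and 56.3 in replicate 1. These 3 were the extremes and were chosen after their values were seen.

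**Figure D2:**
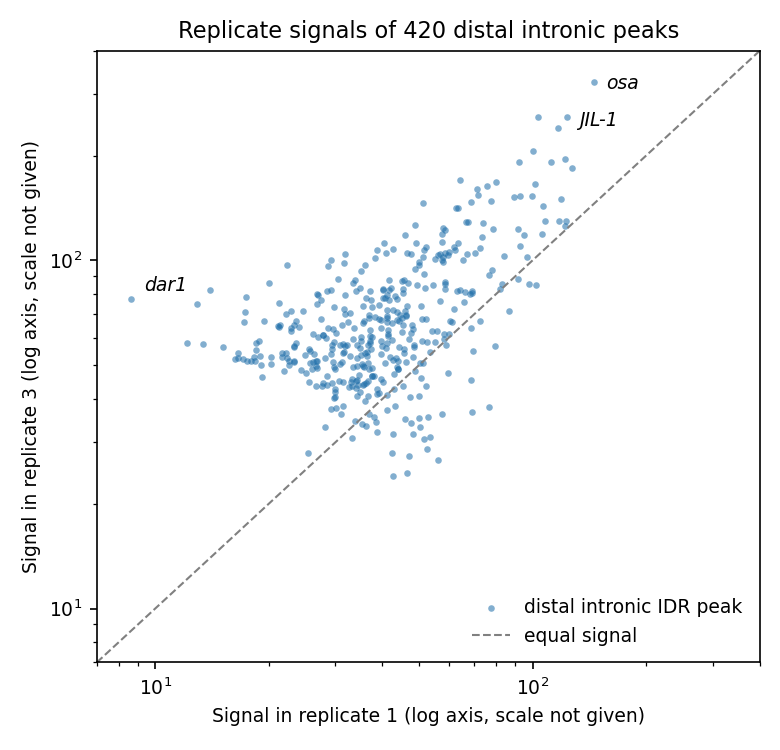
Signal of each of the 420 distal intronic peaks matched in both replicates, in replicate 3 (vertical log axis) against replicate 1 (horizontal log axis), with 1 point for each peak and a dashed line at equal signal. Of the points 374 lie above the line, osa has the highest values in both replicates, and dar1 stands at the left with 8.65 in replicate 1.

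The peaks lay in 274 host genes. Sequence that could hold such a peak (intronic, outside coding and untranslated exons, over 3000 bp from any protein-coding start) is called eligible, and 37.4 Mb of the 6 chromosome arms, or 27.9%, was eligible. It fell in 3021 of 13945 protein-coding genes, so 9.07% of the genes that could hold a distal intronic peak did. Hosts were long: their median length was 34.4 kb, against 13.1 kb for all genes with eligible sequence and 2.17 kb for all protein-coding genes. They had a median of 19.2 kb of eligible sequence, and genes without such a peak 2.31 kb.

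The share of genes that were hosts rose with eligible sequence up to 100 kb, while peaks per base fell beyond 5 kb. Among genes with 2 to 5 kb of eligible sequence 27 of 445 were hosts, with 2.25 peaks per 100 kb. Among those with 20 to 50 kb 84 of 387 were hosts, with 1.20 per 100 kb. Of the 116 genes with 50 to 100 kb 40 were hosts (34.5%), with 1.00 per 100 kb. The 40 genes with over 100 kb had 9 hosts (22.5%) and 17 peaks, or 0.196 per 100 kb, against 1.13 per 100 kb over all eligible sequence.

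Peaks were spread over the large arms. There were 86 on 2L, 76 on 2R, 70 on 3L, 105 on 3R and 84 on X, and 0 on the small chromosome 4, which has 0.388 Mb of eligible sequence and 50 regions of this position class in the pooled list. The density was 1.46 per 100 kb on 2L, 1.17 on 2R, 0.939 on 3L, 1.00 on 3R and 1.26 on X.

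Within hosts the peaks were often in the first intron. With the shortest intron over all transcripts taken as the one that holds a summit, 207 of 421 peaks (49.2%, interval 44.4 to 53.9%) were in a first intron, as were 39.3% of the weaker regions and 26.4% of eligible bases. The intron had a median length of 15013 bp, from 493 bp in Socs36E to 126467 bp in Ptp61F, and the medians were 14492 bp for the weaker regions and 17823 bp for eligible bases. Very long introns held few: 28 peaks (6.65%) were in introns over 50000 bp, against 9.64% of the weaker regions and 19.2% of eligible bases. Introns under 2000 bp held 10 (2.38%), against 5.24% of the weaker regions. Eligible bases include repeats and heterochromatin in which reads may not map, and the part of this in the gaps was not tested.

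Although all lay over 3000 bp from a start site, the peaks gathered towards the near end of that range. Their median distance to the nearest protein-coding start site was 6692 bp, against 7498 bp for the weaker regions and 10527 bp for eligible bases. In all 141 (33.5%) were within 5000 bp, against 27.7% of the weaker regions and 19.25% of eligible bases. Over 20000 bp away were 37 (8.79%, interval 6.44 to 11.88%), against 11.86% of the weaker regions and 28.4% of eligible bases. The value of the weaker regions lies just inside that interval. The farthest, at 53501 bp, was in hth, a homeodomain cofactor of Hox proteins, and had a signal of 79.2 in the pool, 51.1 in replicate 3 and 26.2 in replicate 1.

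The summits nearest to the limit of 3000 bp looked alike on its sides. Just inside were peaks in siz at 3008 bp with a signal of 109, in trx at 3014 bp with 213 and in bru2 at 3018 bp with 95.4. Just outside were intronic summits in CG12991 at 2986 bp with 93.6, in CG32066 at 2979 bp with 147 and in Mnt at 2962 bp with 107.

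In the first 25% of the intron from its 5′ end lay 92 peaks (21.9%), against 22.9% of the weaker regions. The next 25% held 116 peaks (27.6%) and 1572 of the 5614 weaker regions, and the following 25% held 125 (29.7%, interval 25.5 to 34.2%), against 25.3%. The last 25% held 88 (20.9%), against 23.8%. The intervals of all these shares include the values of the weaker regions except in the stretch with 125 peaks, where the weaker value lies just under the interval. Within 500 bp of an exon end lay 27 peaks (6.41%), against 10.2% of the weaker regions and 14.3% of eligible bases.

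**Figure D3:**
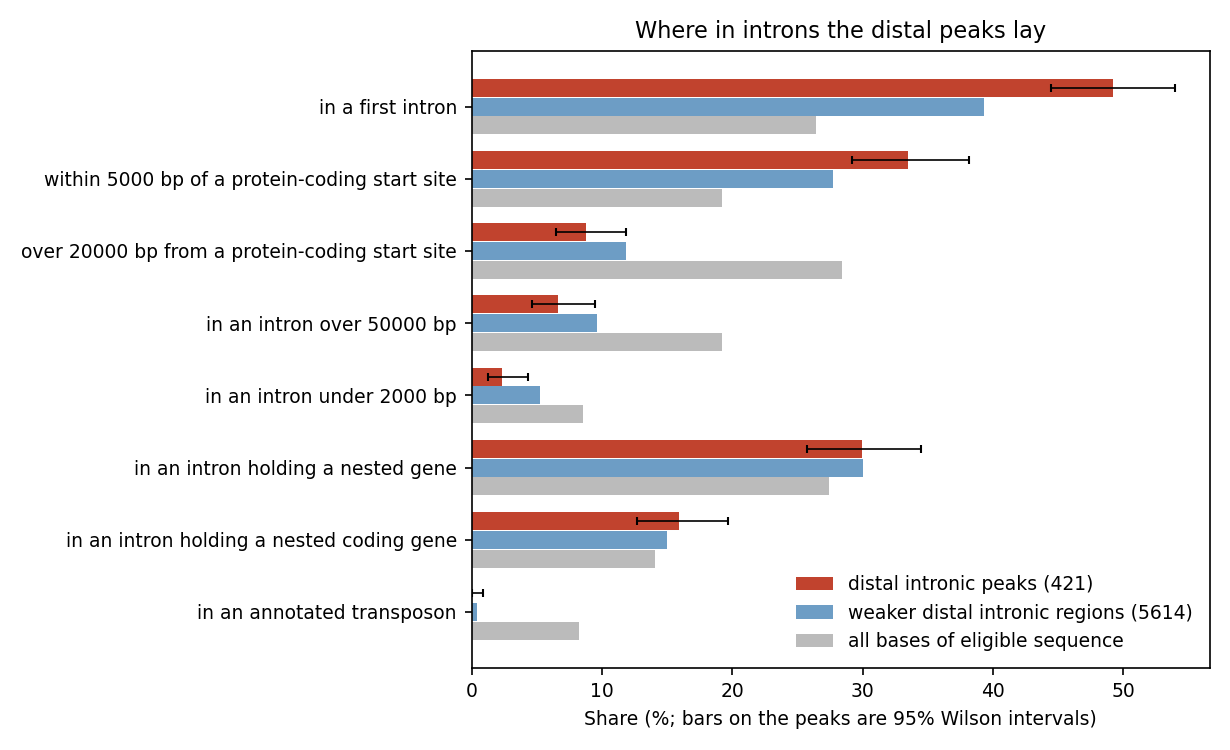
Share of distal intronic peaks (top bar of each group, with 95% Wilson interval), of weaker distal intronic regions (middle) and of all eligible bases (bottom) with each feature, in percent on the horizontal axis. First introns held 49.2% of the peaks, 39.3% of the weaker regions and 26.4% of the bases, while introns with a nested gene held 29.9%, 30.03% and 27.4%.

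Nested genes shared an intron with 126 of the 421 peaks (29.9%, interval 25.8 to 34.5%). The share was 30.03% for the weaker regions and 27.4% for eligible bases, so it was near the background. Nested protein-coding genes shared it with 67 peaks (15.9%), against 14.96% of the weaker regions. The nearest protein-coding start site belonged to the host for 318 peaks, to a coding gene nested in the same intron for 34, and to another gene for 69. At 14 summits more than 1 coding gene overlapped, so the host is 1 of several there.

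Some nested genes are regulators in their own right. CG1677 held 2 peaks, of 148 and 98.6, in an intron of 73902 bp with 9 nested coding genes. Of these brk, a repressor of BMP targets, had the nearest start site, at 7928 and 6310 bp. A peak of 129.7 in the nested gene Atg5 also lay inside this intron and was counted for Atg5. The intron of Ptp61F, a tyrosine phosphatase, was the longest with a peak and enclosed 19 nested genes, 9 of them coding. Of these SA2 had the nearest start site, at 5267 bp, and rho and ru encode proteases that release EGF receptor ligands. The second intron of Raf, with its 5 peaks, encloses Ilp6, an insulin-like peptide, but the nearest coding start site to all 5 was that of Raf. These nested genes were named after their values were seen.

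Non-coding start sites were close to a few peaks. A start site of any non-transposon gene lay within 500 bp of 9 summits (2.14%), against 1.85% of the weaker regions. They were FBtr0445460_df_nrg at 150 bp in CG17124, lncRNA:CR44867 at 403 bp in beat-Ib, lncRNA:CR44478 at 387 bp in Socs36E and lncRNA:CR44331 at 74 bp in puc. Further ones were tRNA:Gln-TTG-2-1 at 203 bp in CG12535, lncRNA:CR34335 at 256 bp in DIP-alpha, snoRNA:Or-ACA6 at 479 bp in egr, lncRNA:CR45888 at 88 bp in dlp and lncRNA:CR44757 at 375 bp in CG13506. Within annotated transposons there were 0 of 421 summits (upper Wilson bound 0.904%), against 0.428% of the weaker regions and 8.25% of eligible bases.

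More than 1 peak lay in 90 of the 274 hosts, and these held 237 of the 421 peaks (56.3%). The regions of 8 pairs of neighbouring peaks overlapped, and 4 of these pairs were matched to 1 replicate 1 region. Merging them left 413 separate regions, of which 226 (54.7%) lay in the 87 hosts with 2 or more. There were 34 hosts with at least 3 and 13 with at least 4. The gene with the most was sbb, which encodes the nuclear corepressor Brakeless, with 7 peaks of 75.6 to 167 in a first intron of 49364 bp. Eip75B, a nuclear receptor induced by ecdysone, had 6 peaks of 102 to 185. Hr4, fz, Raf, CG42238 and kirre, an adhesion protein of muscle founder cells, had 5 each. In kirre, with 268 kb of eligible sequence, the 5 summits spanned 100678 bp, and the density was 1.86 peaks per 100 kb. In Raf, with 24.3 kb, they spanned 7216 bp, and it was 20.6 per 100 kb. The weaker regions numbered 23 in sbb, 24 in Eip75B, 62 in kirre and 10 in Raf. Hosts with more than 1 were not counted for the weaker regions, so the share of 56.3% has no background.

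Some peaks of 1 gene were close together. The median distance to the nearest other distal intronic peak was 24744 bp. Joining summits within 5000 bp gave 359 clusters, of which 50 held 2 or more peaks and 8 held 3 or more, and 112 peaks (26.6%) were in a cluster of 2 or more. No such share was counted for the weaker regions or the other classes. In Raf, the kinase below Ras, 5 summits lay within 7216 bp, with gaps of 1485 to 2317 bp. Their pooled signals along the gene were 159, 189.6, 133, 197 and 79.0. In replicate 3 these 5 had 100.04, 147, 98.3, 129 and 57.9, and in replicate 1 57.5, 51.1, 31.7, 67.4 and 18.5. In sbb 5 of the 7 summits lay within 9160 bp. The median distance to the nearest IDR peak of any class was 7659 bp, and 158 distal intronic peaks (37.5%) had one within 5000 bp.

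**Figure D4:**
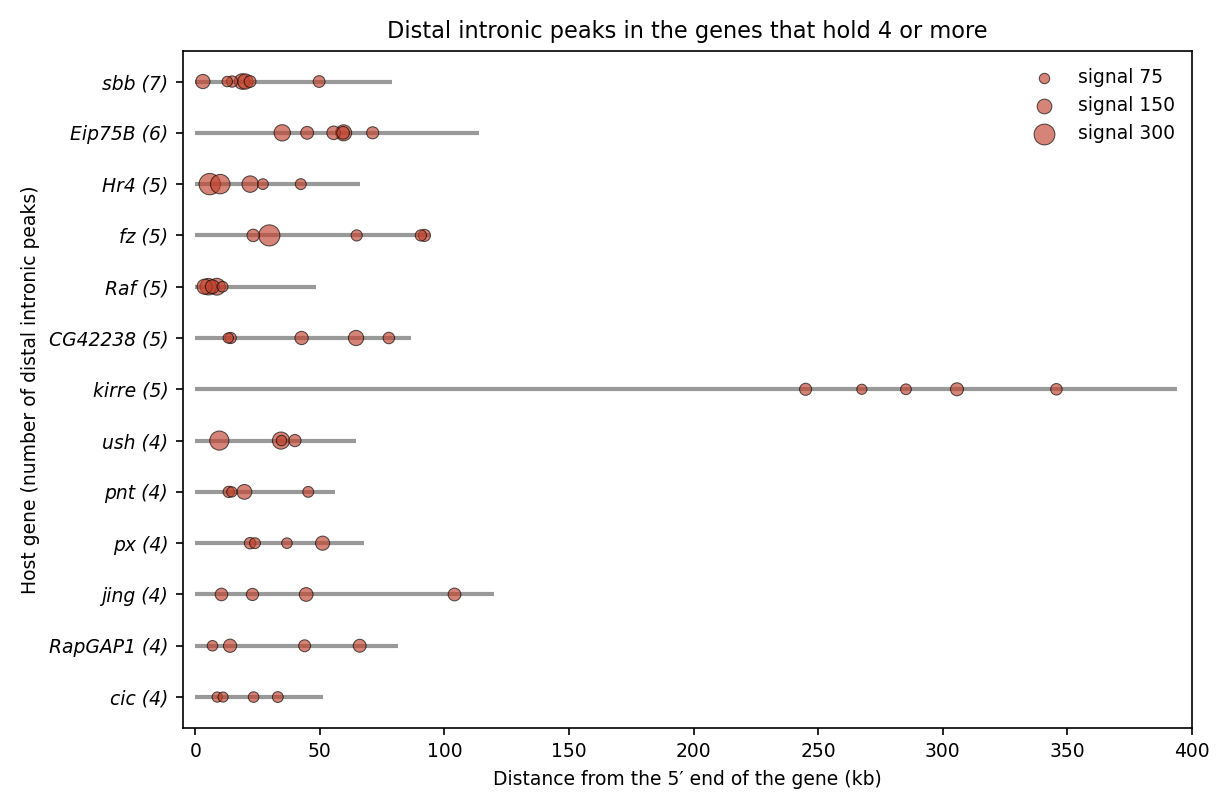
Distal intronic peaks in the 13 genes that hold 4 or more, with each gene drawn as a grey line from its 5′ end (horizontal axis in kb) and each peak as a circle whose area is proportional to its pooled signal. The 5 peaks of Raf stand within 7216 bp, while the 5 of kirre span 100678 bp.

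Most hosts had no promoter peak, but a larger share had one than among other genes with eligible sequence. A peak at any start site of a gene counted, and the number of start sites per gene was not matched. Of the 274 hosts 67 (24.5%, interval 19.7 to 29.9%) had an IDR peak within 500 bp of a start site, against 364 of the 2747 other genes with eligible sequence (13.3%, interval 12.03 to 14.6%). Over all 3021 genes with eligible sequence the share was 14.3%. Among genes with 20 to 50 kb of eligible sequence it was 26.2% in hosts and 10.6% in the others, and with 5 to 10 kb 18.2% and 16.9%.

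Hosts were counted in lists of genes by function. The lists were chosen with earlier results of these data known, so their shares and intervals describe the lists and do not test them. In the list of EGF and FGF receptor signalling genes 8 of the 21 with eligible sequence were hosts (38.1%, interval 20.8 to 59.1%), with 19 peaks. Genes with as much eligible sequence as these were hosts in 16.2% of cases, a share weighted over the 7 size classes, so part of the gap from 9.07% went with gene size. The listed genes were also dense in weaker regions, with 151 in 452.4 kb, against 5614 in 37.4 Mb of all eligible sequence. The 8 run through the pathway: the ligand vn, the ligand exporter S, the inhibitor aos, the receptor Egfr, the adhesion protein ed that antagonises it, the kinase Raf, and the ETS factors pnt and aop, an activator and a repressor of the targets.

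Their levels differed widely. S had 3 peaks of 365, 140 and 83.2, and Raf 5 of up to 197. The activator pnt had 4 of up to 151, ed had 3 of up to 109.8, and aop had 1 of 109. Egfr itself had 1 peak of 90.3, with nearest start site at 4995 bp. The repressor cic, which is relieved by this pathway and was not counted in the 8, had 4 peaks, all weak, of 70.7 to 81.0.

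In BMP and activin signalling 6 of 13 genes were hosts (46.2%, interval 23.2 to 70.9%), against a size-weighted 10.98%. The 13 genes also held 45 weaker regions in 136.1 kb of eligible sequence. The hosts were the ligand dpp at 144, its receptor tkv at 86.9, the extracellular binders cv-2 at 157 and sog at 106, the inhibitory Smad gene Dad at 185 and the zinc finger cofactor shn at 114. In JAK-STAT, Toll and Hippo signalling 6 of 17 were hosts, against a size-weighted 9.78%, and they included the Hippo pathway genes ex, wts and kibra, the cytokine feedback inhibitor Socs36E with 3 peaks of up to 149.5, Stat92E and cact. In the wingless and hedgehog list 7 of 22 were hosts, against 12.8%, led by fz at 308, dlp at 172 and the hedgehog receptor ptc at 165.

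Among ecdysone genes 4 of 20 were hosts, against a size-weighted 19.4%, so the share was near that of genes of their size. They held 14 peaks: Eip75B 6, Hr4 5, E23 2 and EcR 1. The density was 2.305 peaks per 100 kb, against 1.13 over all eligible sequence. It was 2.60 in the Notch list, 2.56 in the GATA list and 2.54 in the kinase list. The protein kinase list had 11 hosts of 41 genes (26.8%), against 11.8%, with Btk at 217, mnb at 203 and the insulin receptor gene InR at 158. The 11 include SNF4Agamma, which encodes a regulatory subunit of a kinase. Notch signalling had 3 hosts of 11 (N, mam and fng; interval 9.75 to 56.6%), against 13.04%, and the list of segmentation and Hox factors 4 of 19 (lab, Antp, cad and hth; interval 8.51 to 43.3%), against 15.4%. Both intervals include the size-weighted share. The Polycomb and trithorax list had 5 of 22 (interval 10.1 to 43.4%), against 6.48%, and these were osa, trx, Psc, jing and skd, with signals of up to 469, 213, 172, 131 and 80.5.

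Ion channel genes were seldom hosts. Of 50 ion channel and neurotransmitter receptor genes, with a median of 20.9 kb of eligible sequence, 2 were hosts (4%, interval 1.10 to 13.5%), against a size-weighted 16.2%. These were Ca-beta at 104 and Ih at 85.8. The density was 0.166 peaks per 100 kb, against 1.13 over all eligible sequence and 4.20 in the EGF and FGF list. The EGF and FGF genes had less eligible sequence, with a median of 12.3 kb, and peaks per base fell as it rose beyond 5 kb. Weaker regions were also sparser in the ion channel list, with 42 in 1203.7 kb, against 151 in 452.4 kb. In the remaining lists, from neural fate to GATA factors, the interval included the size-weighted share. Neural fate factors had 2 hosts of 26, Lim1 and dac (interval 2.14 to 24.1%), against 14.3%. Genes of cell polarity, junctions and actin had 2 of 37, cno and pyd (interval 1.495 to 17.7%), against 11.2%. Axon guidance and adhesion genes had 14 of 63 (22.2%), against a size-weighted 18.6%. Muscle and mesoderm genes had 3 of 30, Mef2, how and mew, against 10.8%. RNA-binding and splicing regulators had 6 hosts of 26, against 16.6%, led by Rbfox1, how and brat. BTB transcription factors, the family of CG12236, had 4 of 15, against 15.4%, with ken at 204, bab1 at 105, bab2 at 93.6 and fru at 71.0. The list of GATA, blood cell and fat body factors had 3 of 14, against 13.2%, with ush, Pvf3 and luna.

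**Figure D5:**
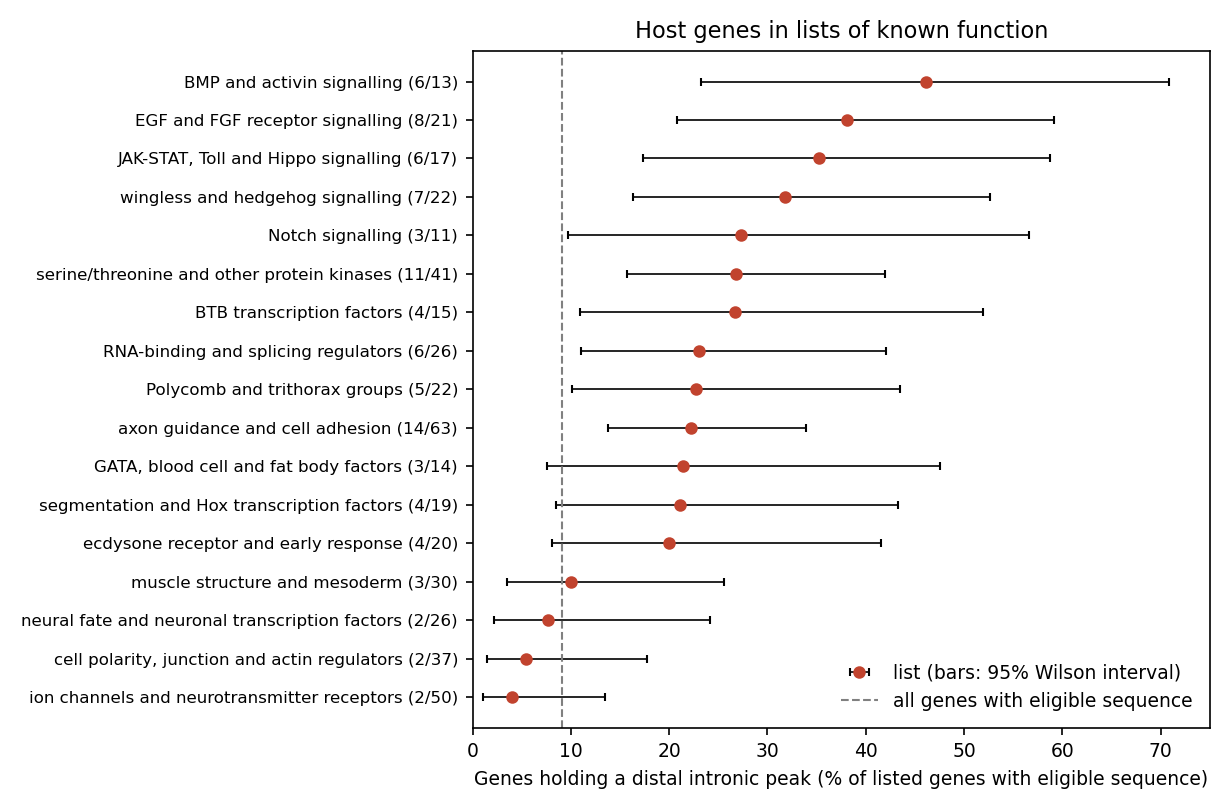
Share of genes that hold a distal intronic peak among listed genes with eligible sequence (percent, horizontal axis), with 95% Wilson intervals, for 17 lists with hosts and genes counted in each label, and a dashed line at 9.07% for all genes with eligible sequence. The BMP list is at 46.2% (6 of 13) and the ion channel list at 4% (2 of 50). The lists were chosen with earlier results of these data known.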

How the data were processed

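ChIP-seq peak lists of 2 replicates of 1 group were used. The deposited signal (column 7) was computed by the authors for each replicate and for the pool against the same control alignment, per the labels, and the summit offset gave each position. For the aligner, the peak caller and the IDR threshold, nothing is stated in the labels or file headers, and the depth is unknown. Lists on dm3 were not used. Positions were classed with Ensembl release 115 (BDGP6.54) on the RefSeq Release 6 sequence. A promoter was 500 bp either side of a start site, replicate summits were matched within 200 bp, summits within 5000 bp were joined and words were searched on both strands within 100 bp. Shares carry 95% Wilson intervals, and no statistical test was made. Of 658 symbols in 17 gene lists, 20 were matched through RefSeq synonyms and 12 were not matched.

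The peaks, the gene lists and the words were chosen with earlier results of these data known. Named genes were hosts of the 25 strongest peaks, the genes with the most peaks (all 13 with 4 or more, because of ties), hosts of the longest introns, the 3 strongest hosts of each list, hosts beside the distance limit and genes with a start site within 500 bp. Further list members were named to complete a count. Alternatives were other distances, start sites, exons, gaps, windows and each replicate alone. The rule, clusters and matching were tested on simulated data. The software was pandas 2.3.3, scipy 1.17.1 and numpy 2.4.6 under Python 3.11.15, with plots from matplotlib 3.10.9.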

Additional observations from a re-analysis of the deposited data

How the results depend on the processing

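Of 62 recomputed values, 49 kept within 1.5 times the reported count or within its interval or replicate spread. Not all could move, since a word absent within 100 bp is also absent within 50 bp. The replicate spread of the median signal, 15.7, includes the difference in level between the replicate lists. The count of 49 is therefore no measure of robustness. A distance of 5000 bp gave 280 distal intronic peaks and 58 hosts with 2 or more, in place of 421 and 90. Taking the stronger 50% of the IDR list gave 199 peaks, 159 hosts and 30 hosts with 2 or more. The longest intron in place of the shortest gave a median of 19863 bp. A window of 50 bp gave a forkhead share of 9.26%. The 2426 strongest regions of 1 replicate alone gave 411 to 417 distal intronic peaks, 264 to 283 hosts, 85 to 95 hosts with 2 or more and median introns of 14018 to 15646 bp. Of the 421 peaks, 363 had a counterpart within 200 bp among the 417 of replicate 3 and 331 among the 411 of replicate 1. Also chosen after seeing the data were the weighting by GC content and by gene size, and merging overlapping peaks, which gave 87 hosts with 2 or more. Chosen in the same way, the peaks ranked 2426 or better in both replicates held the forkhead word within 100 bp in 10.7% of cases, and the lists were recounted. EGF and FGF hosts numbered 5 at 5000 bp and 10 in replicate 1 alone, in place of 8, and ion channel hosts 1 at 5000 bp and in the stronger 50%, in place of 2. Unknown depth limits what absence of a peak can show. No paired analysis was possible because there was 1 group.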
